A study of Mus musculus with 47 samples.

Results

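Myc is a transcription factor that binds DNA with its partner Max, mostly at promoters, and at high levels also at enhancers. Enhancers are regulatory elements away from promoters. Active ones carry acetylated lysine 27 of histone H3 (H3K27ac), and RNA polymerase II (RNAPII) is often found on them. Trimethylated lysine 4 of the same histone (H3K4me3) is the mark of active promoters. The sites described here are Myc binding regions that were found in every Myc-driven mouse liver tumour of the series and that lay, in control liver, in H3K27ac chromatin without H3K4me3. They were chosen from peak lists. Myc peaks of the 6 tumours were merged where they overlapped by at least 1 bp, and regions with a peak in all 6 were kept as constant Myc regions. Of these, the sites overlap an H3K27ac region found in at least 2 of 4 control livers and no H3K4me3 region found in at least 2 of them. The rule gave 2405 members, which were 17.6% of the 13652 constant Myc regions and 3.83% of the 62815 Myc regions found in any tumour. The other constant regions were 9063 at control H3K4me3, called promoter-marked here, and 2184 with neither mark, called unmarked here.

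Control livers were numbered C1 to C4. C1 carried tet-Myc that was not expressed, C2 carried the liver-specific transactivator LAPtTA, and C3 and C4 were wild type. Tumours carried tet-Myc and LAPtTA together, with the transgene on from before birth. They were numbered T1 to T6 for Myc and T1 to T4 for the other antibodies. Tumours of the third group, Toff1 to Toff3, had the same genotype and tet-Myc had been switched off for 16 h with doxycycline in the food. The treatment protocol names wild-type and V394D tet-Myc without saying which form each tumour expressed. The headers of the histone mark lists carry the name Twt for the 4 tumours with Myc on. The material was tumour nodules or control liver, so each library mixes the cell types of a nodule or a liver. In bulk chromatin, fewer cells with a mark and a weaker mark in each cell cannot be told apart. Control livers are not tumours, so oncogene and tumour state cannot be told apart in the comparison with control liver.

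Libraries stood apart in several ways. The Myc lists of the tumours held between 19269 peaks (T1) and 55763 peaks (T6), and the Toff lists between 98 and 331. Among control livers, the wild-type C4 had 8499 Myc peaks and the others 1002 to 2816. The H3K4me3 lists of the Toff tumours were longer, with 18502 to 19876 peaks, than those of the tumours with Myc on, with 14502 to 14942. The H3K27ac lists of C1 and C2, the transgenic controls, were the shortest, with 9696 and 11202 peaks. T4 had the smallest RNAPII coverage, 40.9 Mb, and Toff3 the largest, 146 Mb. The lists hold no read counts. The depth of each library is therefore unknown, and a region without a peak is a region where none was called.

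The values that chose the members are a description. Members had a median width of 1810 bp and a range of 599 to 11701 bp. The median widest Myc peak inside a member was 567 bp in T1, 480 bp in T2, 584 bp in T3, 846 bp in T4, 974 bp in T5 and 1780 bp in T6. T6 thus set the width of most members, and its peaks covered 98.9% of a member on average. The median distance from a member to the nearest control H3K4me3 region was 13854 bp. It was under 1000 bp for 62 members and over 10 kb for 58.9% of them. The word enhancer rests on the control marks alone, since H3K4me1, an enhancer mark the protocol also names, was not used here. In 191 members, 1 control list did hold an H3K4me3 region. A further 190 constant regions in control H3K27ac were left out because exactly 2 control lists held H3K4me3 there. At the other limit, 297 members had control H3K27ac in exactly 2 lists, and 274 regions were left out because 1 list held it. Another 864 regions met every condition but had a Myc peak in 5 of the 6 tumours. Of these, 425 lacked a peak in T1 and none lacked one in T6.

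The acetylated domains that held members were longer at the median than all such domains. The members fell into 1783 control H3K27ac regions whose median length was 21830 bp, against 9507.5 bp for all 12534 control H3K27ac regions. A longer region has more room for a site, and lengths were not matched. Among the 2630 control H3K27ac regions that had no H3K4me3 anywhere, 842, or 32.0%, held a member. The 842 had a median length of 15031 bp, against 12368.5 bp for the 2630. Of the 2405 members, 1348 (56.0%) lay in a domain that also overlapped a control H3K4me3 region elsewhere along its length. Most domains, 1344 of them, held 1 member, and 40 held at least 4. The domain with most members, chr8:129157267-129460798 in mm9, was 303532 bp long and held 11. The next were chr14:26257051-26388254 with 7 members in 131204 bp and chr19:47470055-47543342 with 7 members in 73288 bp. In the chromosome 19 domain, RNAPII peaks covered 93.3%, 35.2%, 72.6% and 24.5% of the length in C1 to C4. They covered 14.5%, 15.1%, 27.4% and 5.31% in T1 to T4, and 20.3%, 20.0% and 64.9% in Toff1 to Toff3. H3K27ac peaks covered at least 81.8% of the same domain in each tumour of both kinds. In the chromosome 14 domain, RNAPII covered 76.2% to 89.8% in control livers and 12.8% to 92.6% in the tumours with Myc on, so the groups overlapped there.

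Myc was rarely called at the members outside the tumours with Myc on. A Myc peak was present in 6.53% of members in C1, 11.4% in C2, 2.04% in C3 and 17.1% in C4. In all, 544 members had a Myc peak in some control liver, 41 had one in all 4 and 1861 had none. At promoter-marked regions the control shares were 6.98%, 7.38%, 4.35% and 55.8%, with C4 far above the others. After 16 h without tet-Myc, 3 of the 2405 members had a Myc peak in any of the 3 Toff tumours. Within the tumour lists, the authors' Myc score ranked the members below the promoter-marked regions. The median percentile of a member's best peak was 49.6 in T1, 56.1 in T3 and 72.5 in T4, and that of promoter-marked regions was 69.4, 78.0 and 85.7. In T2 both classes had a median percentile of 65.7, and in T6 they had 87.2 and 87.8. These scores come from lists the rule used. For the same reason the fitted Myc differences are given without reading anything from them: 2122 members lay in Myc regions higher in tumours than in control liver, where 47.2% of all tested Myc regions were, and 2021 in regions lower in Toff tumours than with Myc on, where 44% were.

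The 5 members with the highest mean Myc score percentile show the range of the other readouts. The highest, chr4:141296997-141298865, had a mean percentile of 99.5. Its Myc coverage was 8.83%, 17.8%, 0% and 31.8% in C1 to C4. In T1 to T6 it was 47.7%, 42.2%, 57.0%, 76.6%, 81.2% and 100%. H3K27ac covered all of it in each of the 11 libraries, and RNAPII was present in every library at 31.5% to 100%. The member at chr8:87245291-87250306 had RNAPII over 97.4% to 100% of its length in all control livers and all tumours with Myc on. In Toff1 and Toff2 no RNAPII peak was called there, and in Toff3 98.2% was covered. An H3K4me3 peak covered 72.7%, 65.4% and 76.6% of it in Toff1 to Toff3 and none was called in the other 8 libraries. The member at chr11:117736451-117741924 also had H3K4me3 in the Toff tumours, over 96.9%, 50.5% and 100%, and in no other library. The members at chr1:84847093-84849804 and chr4:149955867-149959947 had no H3K4me3 peak in any library.

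**Figure D1:**
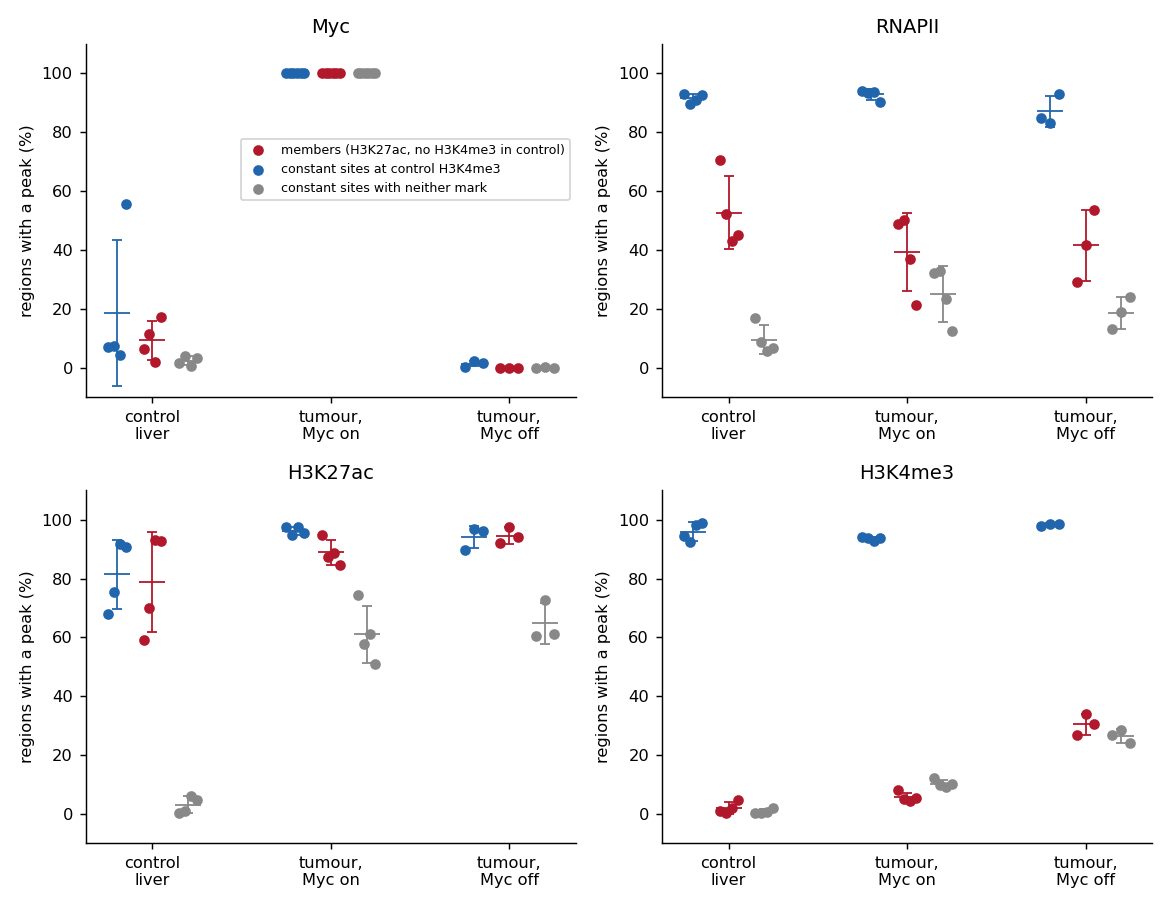
Percent of regions with a peak, per library, for Myc, RNAPII, H3K27ac and H3K4me3; points are libraries, horizontal ticks are group means and bars are 1 SD. Red points are the 2405 members, blue points the 9063 promoter-marked and grey points the 2184 unmarked constant Myc regions. H3K4me3 at members is 4.57% to 7.98% in tumours with Myc on and 26.7% to 34.0% in Toff tumours, and the RNAPII groups of the members overlap.

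RNAPII was not used by the rule. An RNAPII peak was called in 70.4%, 52.2%, 43.0% and 45.2% of members in C1 to C4, a mean of 52.7% ± 12.5 (SD, n = 4). In T1 to T4 it was called in 48.7%, 50.1%, 37.0% and 21.4%, a mean of 39.3% ± 13.3 (SD, n = 4). In Toff1 to Toff3 it was called in 29.3%, 41.8% and 53.6%, a mean of 41.6% ± 12.1 (SD, n = 3). The 3 groups overlapped. Promoter-marked regions had RNAPII in 83.1% to 94.1% of regions in every library. Unmarked regions had it in 5.77% to 16.9% in control livers and in 12.5% to 32.7% in tumours with Myc on. Within each library, the member share exceeded the unmarked share by 37.2 to 53.5 percentage points in the 4 control livers and by 8.92 to 17.3 points in the 4 tumours with Myc on, without overlap. In the Toff tumours the gap was 16.1 to 29.6 points. With the RNAPII lists shortened to their 11916 widest peaks, the gap was 31.8 to 38.9 points in control livers and 7.93 to 17.1 points with Myc on. Against promoter-marked regions these groups overlapped. Members minus promoter-marked was -47.9 to -22.7 points in control livers and -68.9 to -43.3 points with Myc on. With the shortened lists it was -41.0 to -6.59 points and -69.9 to -32.9 points. The members were chosen for H3K27ac in control liver and the unmarked class for lacking it. The part of that choice in the gap to the unmarked class was not tested.

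In every library, most members with RNAPII lay under a peak that did not extend to a control H3K4me3 region. The members themselves lack such a region by choice, and the H3K4me3 of the tumours was not used in this count. The peak over a member reached a control H3K4me3 region for 15.9% to 28.7% of the members with RNAPII in control livers. The figure was 11.6% to 36.8% in tumours with Myc on and 29.7% to 37.4% in Toff tumours. In control livers, RNAPII peaks that did reach one had median widths of 20678 to 25907 bp, against 2390 to 3088 bp for the others. Counting a group as positive with a peak in at least 2 of its libraries, 673 members (28.0%) had RNAPII in all 3 groups and 680 (28.3%) in none. RNAPII was present in control liver alone at 401 members (16.7%), in tumours with Myc on alone at 142 (5.90%) and in Toff tumours alone at 53 (2.20%). Among promoter-marked regions these shares were 1.93%, 2.66% and 0.177%, and among unmarked regions 2.79%, 14.8% and 2.98%. The Toff group had fewer libraries, so the limit was not alike across groups.

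To ask whether RNAPII at the members differed between tumours with Myc on and control liver, all merged RNAPII regions found in at least 2 libraries were fitted with limma on the percent of the region covered. The threshold was an adjusted p of 0.05 (Benjamini-Hochberg) over all 16931 regions, and a member counts as called when it overlaps a called region. The call is that of the region, which can be much longer than the member. Of the members, 269 lay in regions where RNAPII fell and 43 in regions where it rose. The called regions had median lengths of 25179 bp and 9249 bp. The mean coverage of the member itself was lower with Myc on at 256 of the 269 and higher at 40 of the 43. The 269 were 11.2% of members, lying in 208 RNAPII regions, against 9.1% of all RNAPII regions called lower and 6.29% of all constant Myc regions. The 43 were 1.79% of members, against 3.89% of all RNAPII regions called higher and 4.1% of constant Myc regions. Promoter-marked regions also had more lower than higher, 564 (6.22%) against 416 (4.59%). In the unmarked class the split ran the other way, with 101 (4.62%) higher and 26 (1.19%) lower. A tested RNAPII region was present at 1894 members. The median difference over the 1572 regions holding members was -15.3 percentage points, and over all tested regions it was -0.398. The members were chosen for H3K27ac in control liver. The part of that choice in the lower RNAPII of the tumours was not tested. With each library left out in turn, 175 to 238 members were lower and 23 to 71 higher. The 175 came without C1, and the higher count was 71 without T4, the library with the smallest RNAPII coverage, 23 without T2, 25 without T1 and 26 without C3. With each library's mean coverage as a covariate, 293 members were lower and 118 higher, where 9.7% and 7.9% of all RNAPII regions were. With wild-type control livers alone, 146 members were lower and 23 higher. The share of all RNAPII regions in that fit is not given here. In a fit of the coverage of each constant Myc region itself, 136 members (5.65%) were lower and 35 (1.46%) higher, where 2.18% and 3.56% of all constant Myc regions were. Of those 136, 102 were also among the 269. Fisher's exact test on the presence of a peak called none, since its smallest possible p with 4 libraries against 4 is 0.0286. Without adjustment, 102 members (4.24%) lay in regions with a Fisher p under 0.05, where 7.95% of all RNAPII regions and 2.96% of constant Myc regions were.

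The named members with lower RNAPII include regions where no tumour with Myc on had a peak. At chr1:135160521-135162919, 15551 bp from control H3K4me3, the RNAPII region from 135146510 to 135202634 was covered over 96.0%, 95.7%, 99.9% and 95.4% in C1 to C4. No peak was called there in T1 to T4, and the 3 Toff tumours had 0%, 0% and 3.89%. The difference was -96.8 points (SE 13.6, limma adjusted p = 0.000207). The RNAPII region from 95770565 to 95804712 around the member at chr8:95775945-95777093 was covered over 94.5%, 86.6%, 96.1% and 97.5% in control livers, and no peak was called there in any tumour. At chr9:70980677-70981820 the control values were 97.4%, 88.8%, 97.5% and 84.7%, again with no peak in any of the 7 tumours. The region around chr6:72165996-72167748 had 78.3% to 100% in control livers, 0% to 10.4% with Myc on and 0% to 6.62% in Toff tumours. Each of these 4 members was itself covered whole in all 4 control livers and had no RNAPII peak in a tumour, except that chr1:135160521-135162919 was covered over 79.0% in Toff3.

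Fewer members lay in regions that gained RNAPII. The smallest p was at chr5:130234457-130237464. Its RNAPII region, 130229221 to 130237504, was covered over 42.2%, 18.3%, 15.7% and 26.0% in C1 to C4 and 97.4%, 84.4%, 99.5% and 80.8% in T1 to T4. Toff tumours had 90.3%, 83.0% and 69.2%, so the region stayed covered 16 h after shutdown. The difference between tumours with Myc on and control liver was 65.0 points (SE 10.9, limma adjusted p = 0.000429). The member itself had no RNAPII peak in the control livers and was covered over 98.7% to 100% with Myc on. The member chr9:40125911-40127542 was 75085 bp from an H3K4me3 region found in at least 2 control livers. In its RNAPII region the control livers had 10.1%, 24.7%, 0% and 0%. The tumours with Myc on had 77.6%, 78.8%, 100% and 74.1%, and the Toff tumours 72.3%, 77.6% and 76.0%. The regions at chr11:55277618-55279329, chr3:10019350-10023853 and chr12:111457826-111460121 had at most 49.6% in a control liver, at least 47.4% in a tumour with Myc on and at least 64.1% in a Toff tumour, and in each of them every tumour was above every control liver. The members did not all follow their regions. At chr11:55277618-55279329, in a region of 44564 bp, RNAPII covered 34.1% to 63.3% of the member in the control livers and 70.4%, 48.5%, 0% and 0% in T1 to T4, so the member itself did not gain RNAPII. The member at chr3:10019350-10023853 had none in the control livers and 97.4%, 85.1%, 99.0% and 0% in T1 to T4. H3K4me3 was called on some of these members. It covered chr9:40125911-40127542 over 72.6% in C4, 83.6% to 100% in T1 to T4 and 99.9% to 100% in Toff tumours. The member at chr5:130234457-130237464 had 40.8% in C4, 76.5% in T2 and 90.1% to 97.8% in Toff tumours. That at chr12:111457826-111460121 had 61.7% in C4, 72.1% in T1, 62.9% in T2 and 79.3% to 93.6% in Toff tumours. The chromosome 11 member had it in Toff2 and Toff3 alone, and the chromosome 3 member in no library.

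H3K27ac peaks were mostly still called at the members in regions with lower RNAPII, but more of these members than of the others lay in regions called lower in H3K27ac. Of the 269 members with lower RNAPII in tumours, an H3K27ac peak was present at 84.4% to 97.4% in the control livers, at 80.3% to 94.4% in the 4 tumours with Myc on and at 91.8% to 97.4% in the Toff tumours. Among the 2093 members without a call in this comparison the values were 56.3% to 92.6%, 84.9% to 94.8% and 92.0% to 97.6%. In the H3K27ac fit of tumours with Myc on against control liver, 40 of the 269 (14.9%) were lower and 0 higher, and of the 2093 76 (3.63%) were lower and 216 (10.3%) higher. Of the 43 members with higher RNAPII, 0 were lower and 7 (16.3%) higher. Of all H3K27ac regions 6.58% were lower and 9.88% higher, and of constant Myc regions 3.08% and 14.9%. The calls are those of the regions. Of the 116 members called lower, 66 had lower mean coverage themselves and 45 had equal coverage. The same tumour and control groups enter both fits, control H3K27ac chose the members, and these counts carry no test.

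Few members lay in regions that changed in RNAPII within 16 h of shutdown. In Toff tumours against tumours with Myc on, the region was higher at 75 members, or 3.12%, against 2.43% of all RNAPII regions and 2.81% of constant Myc regions, which is near the background. It was lower at 10 members, or 0.416%, against 1.09% of all RNAPII regions and 1.09% of constant Myc regions. Single libraries moved the total of 85 by more than 1.5 times. It was 55 without T1, 55 without T2, 160 without Toff1, 19 without Toff2 and 33 without Toff3. It was 181 (145 higher and 36 lower) with each library's mean coverage as a covariate. Shares of all RNAPII regions are not given for these alternatives. Fisher's exact test on presence called none after adjustment, with 22 members (0.915%) in regions under an unadjusted p of 0.05, where 2.45% of all RNAPII regions were. In the fit of the coverage of the constant Myc region itself, 25 members (1.04%) were higher and 17 (0.707%) lower, where 0.601% and 1.66% of all constant Myc regions were; 12 of the 25 were among the 75. Between Toff tumours and control liver, RNAPII was higher at 68 members and lower at 105, against 3.33% and 5.05% of all RNAPII regions. This split was not stable. It turned to 90 higher and 61 lower without Toff1 and was 162 and 163 with mean coverage as a covariate, and the total of 173 was 77 without Toff2. Over all libraries left out in turn the higher count was 28 to 90 and the lower 49 to 125. For these counts, too, shares of all RNAPII regions are not given.

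At 31 members the RNAPII region was called lower in tumours with Myc on than in control liver and higher in Toff tumours than with Myc on. They were 1.29% of members, where 0.833% of all RNAPII regions and 1.08% of constant Myc regions did the same, so the share was near the background. Both comparisons use the same 4 tumours, so the calls are not independent of each other. The clearest case was a domain on chromosome 8 that held the members chr8:120240349-120244627 and chr8:120254827-120255895. RNAPII covered 89.0%, 87.6%, 92.1% and 94.0% of the region from 120218961 to 120292138 in C1 to C4. It covered 49.6%, 9.24%, 10.1% and 0.649% in T1 to T4, and 90.6%, 90.2% and 95.9% in Toff1 to Toff3. All 3 Toff tumours were thus in the range of the control livers or above it, and all tumours with Myc on were below both groups. The difference was -73.3 points (SE 11.3, limma adjusted p = 0.000249) for tumours against control liver and 74.8 points (SE 12.3, limma adjusted p = 0.00184) for Toff tumours against tumours with Myc on. The member chr8:120240349-120244627 itself was covered whole by RNAPII in all control livers and Toff tumours, over 87.5% in T1 and not at all in T2 to T4. H3K27ac covered the whole of it in all 11 libraries. On chromosome 11, the region around chr11:79566132-79567349 had 84.2%, 55.8%, 96.0% and 98.4% in control livers, 0%, 17.0%, 12.8% and 0% with Myc on and 69.7%, 88.2% and 98.3% after shutdown. The member itself was covered whole in every control liver and Toff tumour and had no RNAPII peak in T1 to T4. The region on chromosome 3 that holds chr3:28620157-28621987 and chr3:28623685-28624825 had 93.3% to 97.2% in control livers. With Myc on it had 32.3%, 71.3%, 21.4% and 5.36%, and after shutdown 84.9%, 96.8% and 98.6%. Within it, chr3:28620157-28621987 had RNAPII over 80.7% in T1 and 96.8% in T2 and had none in T3 and T4.

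Other named members lay in regions that rose after shutdown, but were partly covered with Myc on themselves. At chr12:84919814-84921821 the RNAPII region, of 67533 bp, had 91.5%, 87.9%, 71.5% and 37.3% in C1 to C4, 4.40%, 9.49%, 16.0% and 3.25% in T1 to T4 and 92.8%, 86.3% and 90.7% in Toff1 to Toff3 (difference 81.7 points, SE 14.3, limma adjusted p = 0.00264). The member itself was covered whole in all control livers and Toff tumours and over 85.2%, 90.7%, 93.5% and 36.0% in T1 to T4. The regions at chr4:40775389-40776912 and chr6:115615389-115617288 had at least 93.3% in each Toff tumour and at most 28.4% in each tumour with Myc on. The member at chr4:40775389-40776912 was covered over 9.51%, 100%, 0% and 0% in T1 to T4, and that at chr6:115615389-115617288 over 100%, 92.6%, 0% and 0%. Both were covered whole in the Toff tumours.

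The reverse order, RNAPII higher with Myc on and lower after shutdown, was called for the regions of 7 members. They were 0.291% of members, below the 0.821% of all RNAPII regions and 0.82% of constant Myc regions that did the same. The lowest p for a fall after shutdown was at chr1:90155227-90157631. RNAPII covered 40.5%, 23.9%, 15.9% and 36.7% of its region in control livers, 91.4%, 94.7%, 93.2% and 95.9% with Myc on and 0%, 0% and 10.4% after shutdown. The difference after shutdown was -90.3 points (SE 14.2, limma adjusted p = 0.00126). The member itself was covered whole in T1 to T4, had no peak in the Toff tumours and had 76.2%, 78.1%, 0% and 100% in C1 to C4. In the region of chr7:29762008-29763840 the tumours with Myc on had 89.7%, 78.0%, 82.3% and 74.7%, and no Toff tumour had over 10.4%. The region of chr8:72742610-72746013 differed among control livers. The tumours with Myc on had 86.0% to 99.1%, no Toff tumour had a peak, and C1 had 85.0% while the other control livers had none. RNAPII covered 62.3% to 85.2% of the region of chr2:155466819-155468387 in control livers and 53.4% to 63.5% with Myc on, and no Toff tumour had a peak. In the region of chr17:29390473-29391305 the values with Myc on were 69.4% to 90.7% and after shutdown 3.77% to 23.0%, and the member itself had no RNAPII peak in T1 and was covered whole in T2 to T4.

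**Figure D2:**
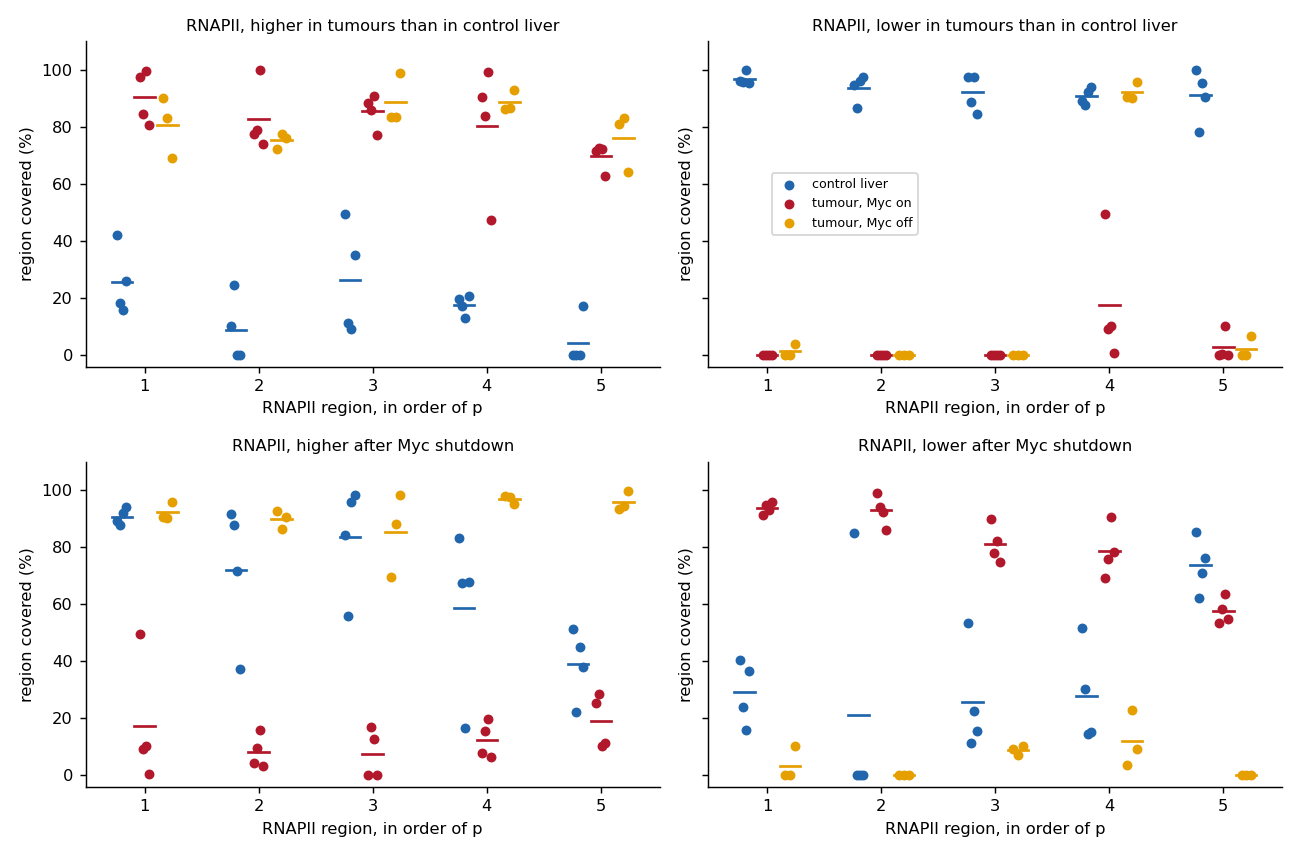
Percent of an RNAPII region covered by each library's RNAPII peaks, for the regions of the 5 named members per panel, in order of limma p; points are libraries and lines are group means. In the upper right panel, regions 1 to 3 have no peak in any of the 4 tumours with Myc on, and region 4 has 90.2% to 95.9% in the Toff tumours.

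H3K27ac at members was chosen in control liver, where a peak was called in 59.1%, 69.9%, 93.0% and 92.8% of members in C1 to C4. The tumours were not used by the rule. A peak was called in 94.9%, 87.4%, 88.6% and 84.6% of members in T1 to T4 and in 92.0%, 97.6% and 94.2% in Toff1 to Toff3. Most members, 2054 or 85.4%, had H3K27ac in at least 2 libraries of each of the 3 groups. By the same count it was called in control liver but in neither tumour group at 39 members, and in control liver and Toff tumours but not with Myc on at 83. In the fit against control liver, whose libraries chose the members, 223 members were higher and 116 lower in tumours with Myc on, where 9.88% and 6.58% of all H3K27ac regions were. With wild-type control livers alone the split turned, to 124 higher and 336 lower, and with mean coverage as a covariate it was 274 and 286. In Toff tumours against control liver 750 were higher and 24 lower, where 30.6% and 3.66% of all H3K27ac regions were. That total of 774 was 506 without C2 and 428 without Toff2, and mean coverage as a covariate turned the split to 92 higher and 139 lower. The Toff lists covered more of the genome than any control list, so that covariate cannot be fully told apart from the group. Shares of all H3K27ac regions are not given for these alternatives. Their counts therefore do not tell the members from all H3K27ac regions.

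After shutdown, the H3K27ac region was called higher at 279 members and lower at 1, where 0.505% of all H3K27ac regions and 0.476% of constant Myc regions were lower. The 279 were 11.6% of members, against 12.2% of all H3K27ac regions and 8.91% of constant Myc regions, so the share was near that of the mark as a whole. The called regions that held the 279 had a median length of 47093 bp. The mean coverage of the member itself was higher after shutdown at 120 of the 279 and equal at 158, so at most of these members the call came from the rest of the region. In the fit of the coverage of the constant Myc region itself, 5 members (0.208%) were higher and 0 lower, where 0.264% and 0.396% of all constant Myc regions were. The median difference was 17.7 points over the 1667 regions holding members and 17.2 points over all 16039 tested regions. The H3K27ac lists of the Toff tumours also covered more of the genome, 168 to 214 Mb, than those of the tumours with Myc on, 104 to 141 Mb. The part of this coverage in the calls was not tested separately, and 2 further fits gave different results. With each library's mean coverage as a covariate, 12 members were higher and 18 lower, so the direction turned. The coverage of these groups did not overlap, so the covariate cannot be fully told apart from the group. The share of all H3K27ac regions in that fit is not given here. With every list shortened to its 9696 highest-scoring peaks, 356 members were higher and 5 lower. That cut evens out the number of peaks and not the coverage. The median difference over all regions was still 12.2 points. The total of 280 was 178 with the replicate number as a block, 154 without T2, 118 without T4 and 114 without Toff2. Fisher's exact test on presence called none, with 10 members (0.416%) in regions under an unadjusted p of 0.05, where 4.16% of all H3K27ac regions were.

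The lists of equal length separated the members from the promoter-marked regions. With them, an H3K27ac peak was called in 59.1% to 70.2% of members in control livers, in 71.4%, 67.0%, 62.2% and 62.1% in T1 to T4 and in 81.8%, 85.9% and 74.6% in Toff1 to Toff3. All Toff tumours were above all tumours with Myc on. At promoter-marked regions the order was the opposite, with 82.9% to 88.4% in tumours with Myc on and 76.1% to 82.3% in Toff tumours. Within a library, the member share was below the promoter-marked share by 12.7 to 26.2 points in the 4 tumours with Myc on, and the difference was -6.02 to 5.73 points in the 3 Toff tumours. In control livers it was -12.8 to -8.80 points. Unmarked regions had a peak in 37.9%, 33.1%, 31.7% and 28.0% in T1 to T4 and in 43.8%, 44.6% and 28.9% in Toff1 to Toff3, so their groups overlapped. With the deposited lists the same difference was -10.9 to -2.47 points with Myc on and -1.75 to 2.20 points after shutdown, again without overlap. Under equal lengths, 14.8% of members were called higher after shutdown, against 9.47% of all H3K27ac regions and 8.75% of constant Myc regions. Among promoter-marked regions 7.43% were called higher and 1.89% lower, and among unmarked regions 7.6% and 1.28%. The median difference over the regions holding unmarked sites was 19.8 points and over those holding members 20.2, against 12.2 over all, so a median rise of this size was not particular to the members. Among members 0.208% were called lower, where 1.72% of all H3K27ac regions and 1.49% of constant Myc regions were. The shortening ranks peaks by the authors' score, so it measures the place of the members among the strongest peaks of each library and not their level.

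**Figure D3:**
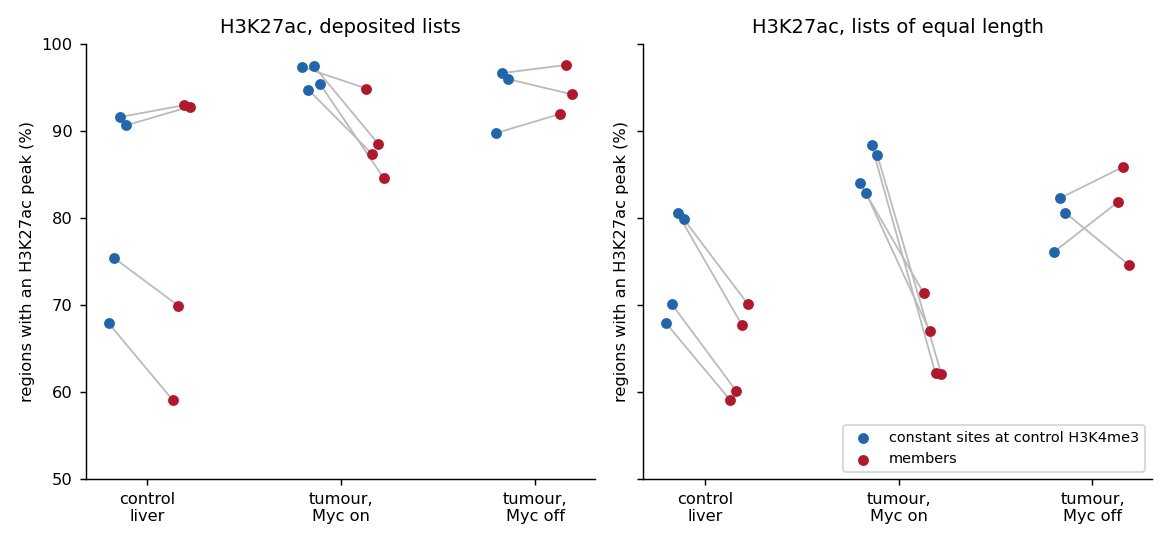
Percent of regions with an H3K27ac peak in each library, for promoter-marked constant Myc regions (blue) and members (red), joined by a line within a library; left, deposited lists, and right, lists shortened to their 9696 highest-scoring peaks. The vertical axis starts at 50%. On the right, members are at 62.1% to 71.4% in tumours with Myc on and at 74.6% to 85.9% in Toff tumours.

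The named members lay in regions where H3K27ac rose after shutdown, and the members themselves differed. In the region of chr9:34945282-34946807, of 85768 bp, H3K27ac covered 70.0%, 78.0%, 87.4% and 94.5% in C1 to C4. It covered 46.8%, 34.6%, 21.1% and 33.5% in T1 to T4 and 85.5%, 93.1% and 93.1% in Toff1 to Toff3 (difference after shutdown 56.6 points, SE 9.15, limma adjusted p = 0.00152). For the 14089 bp region of chr19:34570377-34571829 the control livers had 32.8%, 87.2%, 96.9% and 96.8%, the tumours with Myc on 30.2%, 0%, 0% and 0%, and the Toff tumours 96.3%, 98.6% and 100%. In both regions the Toff values lay within or above the control range, and all values with Myc on lay below every control value. Both members were themselves covered whole in all control livers, in T1 and in all Toff tumours, and had no peak in T2 to T4. In other regions the Toff values lay above both other groups. The region of chr4:151326541-151327979 was covered over 10.0%, 0%, 11.4% and 0% in control livers, 23.2%, 0%, 0% and 0% with Myc on and 83.7%, 99.0% and 89.7% after shutdown. The region of chr1:127415567-127416925 had at most 26.7% in control livers and tumours with Myc on, and 99.2%, 77.4% and 82.7% after shutdown. That region is 29340 bp long, and the member itself was covered whole in each of T1 to T4 and each Toff tumour, so it showed no change. In the region of chr10:89027571-89029370 no tumour with Myc on had a peak, the control livers had 53.0%, 0%, 32.9% and 36.8%, and the Toff tumours had 98.4%, 96.6% and 72.7%. The member called lower was chr15:34724635-34725873, whose region had 52.9%, 40.3%, 100% and 67.9% with Myc on and no peak after shutdown.

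H3K4me3, which the rule kept out of the members in control liver, was called at more members in the Toff tumours. In C1 to C4 a peak was called in 1.08%, 0.249%, 1.87% and 4.74% of members. It was called in 7.98%, 5.11%, 4.57% and 5.45% in T1 to T4 and in 26.7%, 34.0% and 30.6% in Toff1 to Toff3. The Toff tumours did not overlap the tumours with Myc on. Of 776 members in an H3K4me3 region found in at least 2 Toff tumours, 615 (79.3%) were in a region apart from any control H3K4me3 region, with a median length of 3249 bp, and 161 in a region that reached one. With Myc on the numbers were 169 members, 107 of them apart. At each distance beyond 2 kb the Toff shares were between 24.5% and 34.2%. In the 210 members closer than that, the Toff shares were 41.9%, 47.1% and 43.8%, and in the 399 members over 50 kb away they were 24.8%, 32.3% and 30.3%. Unmarked regions had H3K4me3 in 9.07% to 12.1% with Myc on and in 24.1% to 28.6% in Toff tumours. At promoter-marked regions the shares were 92.7% to 94.3% and 97.9% to 98.7%. Over all constant Myc regions they were 63.8% to 65.9% and 74.0% to 76.1%. The lack of overlap between Toff and Myc-on tumours was thus not particular to the members.

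**Figure D4:**
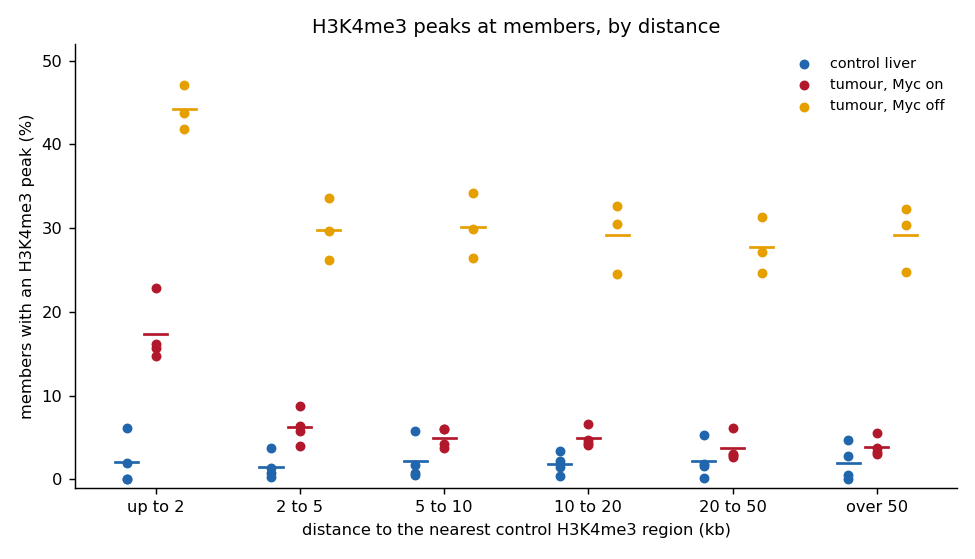
Percent of members with an H3K4me3 peak, per library, by the distance from the member to the nearest control H3K4me3 region in kb; points are libraries and lines are group means. Toff tumours are at 41.9% to 47.1% for the 210 members up to 2 kb away and at 24.8% to 32.3% for the 399 members over 50 kb away.

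In the fit, the H3K4me3 region was higher after shutdown at 530 members and lower at 2, where 0.292% of all H3K4me3 regions and 0.286% of constant Myc regions were lower. The 530 were 22.0% of members, against 27.7% of all H3K4me3 regions and 19.4% of constant Myc regions. A tested H3K4me3 region was present at 809 members, and the others, which count in the 22.0%, could not be called. The median difference over the 742 tested regions that hold members was 57.6 points, against 16.6 over all 19506 tested regions. The rule kept control H3K4me3 out of members, and a region was tested only where at least 2 libraries had a peak, so this median and the calls among the 809 do not stand for all members. The mean coverage of the member itself was higher at 527 of the 530. In the fit of the coverage of the constant Myc region itself, 313 members (13.0%) were higher and 2 lower (0.0832%), where 6.9% and 0.176% of all constant Myc regions were, and 311 of the 313 were among the 530. That fit held 738 of the members, each with a peak in at least 2 libraries, so its counts do not stand for all members either. Promoter-marked regions were already covered over 86.3% on average with Myc on, and members lacked control H3K4me3 by choice. The part of this in the 13.0% and 6.9% was not tested. The lists of the Toff tumours were longer and their peaks scored higher, with medians of 20761 to 22738 against 11255 to 14594 in tumours with Myc on. The calls changed with the lists used. With every list shortened to its 12999 highest-scoring peaks, H3K4me3 was called in 2.41% to 4.28% of members with Myc on and in 5.36% to 8.32% after shutdown, and 43 members (1.79%) were higher and 4 lower. Of all H3K4me3 regions 8.15% were then higher and 0.545% lower, and of constant Myc regions 6.85% and 0.242%. With mean coverage as a covariate no member was called. The lists covered 58.0 to 65.5 Mb in Toff tumours and 38.5 to 46.3 Mb with Myc on. Without overlap the covariate cannot be fully told apart from the group. That fit therefore does not separate list size from a change in the mark. Peaks with at least the median score gave 68 higher and 1 lower. Leaving out T3 gave 353 in all. Fisher's exact test on presence called none, with 280 members (11.6%) in regions under an unadjusted p of 0.05, where 9.03% of all H3K4me3 regions and 4.3% of constant Myc regions were. Against control liver, whose lists the rule used, 643 members were higher in Toff tumours (41.2% of all H3K4me3 regions were), and 75 were higher and 5 lower in tumours with Myc on (8.13% and 6.67%).

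The named members show how H3K4me3 was distributed over the groups. At chr13:45998625-46003594, 49815 bp from control H3K4me3, peaks covered 98.8%, 100% and 96.6% of the H3K4me3 region in Toff1 to Toff3, and the other 8 libraries had none (difference 98.5 points, SE 7.36). The H3K4me3 regions of chr13:60787485-60789544, chr2:70677711-70680885, chr15:7116752-7118717 and chr1:107074919-107076862 had the same pattern, with 93.0% to 100% in every Toff tumour and no peak elsewhere. Of the members themselves, chr13:60787485-60789544 was covered over 79.5%, 79.6% and 75.4% in Toff1 to Toff3, and the other 3 over at least 99.8%. The members called lower lay close to promoter marks. At chr11:116940435-116943865, 535 bp away, H3K4me3 covered 24.2%, 28.8%, 32.6% and 25.9% of its region in control livers, 100%, 79.9%, 80.1% and 63.2% with Myc on and 30.7%, 32.7% and 32.9% after shutdown (difference -48.7 points, SE 8.74, limma adjusted p = 0.00185). At chr9:20695995-20699119, 881 bp away, it covered 34.5% to 55.3% in control livers, 83.5% to 98.5% with Myc on and 45.3% to 56.4% after shutdown. At both, the H3K4me3 region reached further in the tumours with Myc on than in each library of the other groups.

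RNAPII and H3K4me3 shared members. Of the 966 members with RNAPII in at least 2 Toff tumours, 416 (43.1%) had H3K4me3 in at least 2, and of the other 1439 members 290 (20.2%) did. With Myc on the values were 120 of 1136 (10.6%) and 22 of 1269 (1.73%). These are shares over members, from separate RNAPII and H3K4me3 libraries of the same groups, and carry no test.

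The 3 members farthest from control H3K4me3 differed from each other. At chr4:61189068-61190026, 553774 bp away, RNAPII covered the whole member in all 4 control livers and no peak was called in any of the 7 tumours. H3K27ac covered it in every library except T3. At chr14:69077778-69080662, 525216 bp away, RNAPII was called in 3 of 4 control livers, in 3 of 4 tumours with Myc on and in all 3 Toff tumours. H3K4me3 covered 100%, 96.9% and 83.8% of it in the Toff tumours. At chr15:50191597-50193787, 505939 bp away, no RNAPII peak was called in any library, and H3K4me3 covered 87.7%, 95.4% and 83.8% in the Toff tumours alone.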

How the data were processed

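ChIP-seq peak lists were used for 46 of the 47 samples (13 Myc, 11 each for RNAPII, H3K4me3 and H3K27ac), 1 list per library; the input sample was not analysed here. The submitters' processing notes name BWA 0.6.2, SAMtools and the build mm9. The Myc, H3K4me3 and H3K27ac lists hold a score per peak, as deposited by the authors, whose scale is not given in the sources used here; scores served to rank or filter peaks within a list. RNAPII lists hold positions only, and their caller is not given in the sources used here. No list holds counts, so depth is unknown.

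Per antibody, peaks of all libraries were merged (1 bp overlap), and the percent of each region covered by a library's peaks was fitted for regions found in 2 or more libraries with limma 3.58.1 in R 4.3.3 (trended prior variance, the 3 groups in 1 fit, no covariate, Benjamini-Hochberg adjustment). Errors of differences are limma standard errors. The step was tested on simulated data. Other work used Python 3.11.15, numpy 2.4.6, pandas 2.3.3 and matplotlib 3.10.9. Nothing in the labels says that replicates are different animals; p-values then measure only spread between these libraries, which may be technical. Replicate numbers did not pair libraries across groups: identifiers in the histone list headers differed for same-numbered libraries.

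Members and lists were chosen with earlier results of these data known. Named members were the 5 with the highest Myc score percentile, up to 5 per direction with the smallest limma p (1 per called region), the 3 domains with most members, the 3 members farthest from control H3K4me3 and up to 5 reversing members. Chromosome 18 was left out of naming. No mm9 genome or annotation was used, so no gene or sequence is given. Coordinates are mm9, counted from 1. Alternatives were Fisher's exact test on presence, a replicate block, stricter limits on libraries, overlap and score, wild-type controls alone and each library left out; lists of equal length (highest scores, or widest peaks for RNAPII) mean coverage as a covariate, and a fit of the percent of each constant Myc region itself covered (those with a peak in 2 or more libraries, adjusted over them) were added after seeing the data.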

Additional observations from a re-analysis of the deposited data

Results flagged for a closer look

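Within the groups of 4 or more libraries, 78 were examined for a library far from the others, 8 for the shares of members and 70 for the coverage of named regions. The limit used flags about 1 in 20 groups of normally distributed values. Coverage is bounded and often 0, and the named regions were chosen by limma p, so that rate does not hold for them. In all, 8 groups were flagged, all at named regions. RNAPII coverage was 17.1% in C4 and 62.8% in T4 for the region of chr12:111457826-111460121, where the other control livers had no peak and the other tumours with Myc on had 71.4% to 72.7%. It was 99.9% in C3 at chr1:135160521-135162919, where the other control livers had 95.4% to 96.0%. At chr6:72165996-72167748 it was 10.4% in T3, against 0% to 0.394% in the other tumours with Myc on. At chr8:72742610-72746013 it was 85.0% in C1 and 0% in the other control livers. H3K27ac coverage was 23.2% in T1 at chr4:151326541-151327979, where the other tumours with Myc on had none. At chr19:34570377-34571829 it was 32.8% in C1, against 87.2% to 96.9% in the other control livers, and 30.2% in T1, where the other tumours with Myc on had none.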

How the results depend on the processing

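The number of members, 2405, was 2505 with at least 50% of the region's length required in the control region (2387 of the 2405 among them), 2032 with control regions in all 4 lists and 716 with Myc peaks at or above the median score, and ranged from 2205 to 2830 with each library left out. Fisher's exact test on presence gave 0 called members after adjustment in the 9 RNAPII and histone comparisons. With wild-type control livers alone, called members were 169 for RNAPII and 39 for H3K4me3 (tumours with Myc on against control), 430 for H3K27ac and 412 for H3K4me3 (Toff against control) and 1202 for Myc. The stricter score limit gave, for tumours with Myc on against control, 83 for H3K27ac, 7 for H3K4me3 and 1173 for Myc. For Toff against Myc on it gave 69 for H3K4me3 and 976 for Myc, and for Toff against control 118 for H3K4me3. Lists of equal length gave 47 for H3K4me3 and 0 for Myc (Toff against Myc on), 125 for H3K4me3 (Toff against control) and 2 for Myc, both lower (Myc on against control). That last alternative cuts every Myc list to the length of the shortest, a Toff list of 98 peaks. Mean coverage as a covariate gave, for Toff against Myc on, 181 for RNAPII, 30 for H3K27ac, 0 for H3K4me3 and 782 for Myc. For Toff against control it gave 325 for RNAPII, 231 for H3K27ac and 0 for H3K4me3, and for Myc on against control 560 for H3K27ac and 856 for Myc. The coverage of the constant Myc region itself, not run for Myc, gave 171 (Myc on against control) and 42 (Toff against Myc on) for RNAPII, 145, 5 and 33 for H3K27ac (Myc on against control, Toff against Myc on, Toff against control) and 315 for H3K4me3 (Toff against Myc on). The cause of these changes was not tested, except that score limits and shorter lists leave fewer peaks. For H3K4me3 and H3K27ac, the Toff lists covered more of the genome than all other lists of the mark. The coverage of the Myc lists did not overlap between groups. In such comparisons the covariate cannot be fully told apart from the group. Shares of all regions are not given for the counts in this paragraph.

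Same-numbered libraries of different groups correlated at -0.163 to 0.152 in their deviations from group means, so the numbers were not taken as pairs. With the replicate number as a block, called members were 178 for H3K27ac (Toff against Myc on); the other 10 comparisons stayed within 1.5 times their count, for example 387 for RNAPII in tumours with Myc on against control.

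With each library left out in turn, members called with Myc on against control were 213 to 271 for RNAPII, 229 to 367 for H3K27ac, 59 to 73 for H3K4me3 and 1832 to 2359 for Myc. For Toff against Myc on they were 19 to 160, 114 to 267, 353 to 465 and 1570 to 2336, and for Toff against control 77 to 162 for RNAPII, 428 to 934 for H3K27ac and 474 to 635 for H3K4me3. The mean share of members with a peak then ranged, in control, Myc-on and Toff libraries, from 6.65% to 11.7%, 100% and 0.0208% to 0.0624% for Myc and from 46.8% to 56.0%, 35.7% to 45.2% and 35.6% to 47.7% for RNAPII. It was 1.07% to 2.56%, 5.05% to 6.18% and 28.7% to 32.3% for H3K4me3, and 74.0% to 85.2%, 86.8% to 90.3% and 93.1% to 95.9% for H3K27ac. Requiring at least 50% of a member under peaks gave a mean Myc share of 0.156% in control livers and 47.6% with Myc on. The stricter score limit gave mean H3K4me3 shares of 0%, 1.08% and 4.42% and H3K27ac shares of 32.7%, 49.3% and 79.2% in control, Myc-on and Toff libraries. With lists of equal length the Myc-on and Toff means were 3.14% and 6.51% for H3K4me3 and 65.7% and 80.8% for H3K27ac. Of 135 alternative values in all, 80 kept their direction and size by the limits used. Without read counts, a member without a peak cannot be told from one below the caller's threshold.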

Other observations

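Members were rare on the X chromosome. It held 5 of the 2405, which were 2.78% of its 180 constant Myc regions, while the share on the autosomes was between 13.8% (chromosome 7) and 22.0% (chromosome 8). Of the 2630 control H3K27ac regions without H3K4me3, 9 lay on X. Of the 14952 control H3K4me3 regions, 443 did.

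In each of the 11 libraries, RNAPII was called more often at the 601 members with the highest mean Myc score percentile than at the 602 with the lowest. Among the 602 members with the lowest mean Myc score percentile, RNAPII was called in 45.6% ± 12.2 in control liver (SD, n = 4), 30.4% ± 9.81 with Myc on (SD, n = 4) and 35.2% ± 12.2 after shutdown (SD, n = 3). Among the 601 with the highest, it was called in 59.5% ± 12.4, 52.7% ± 16.2 and 49.3% ± 11.1. Among the 544 members with a Myc peak in a control liver, RNAPII was called in 68.5% ± 11.7 in control liver, and among the 1861 without one in 48.1% ± 12.7.

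The H3K27ac lists also give narrower blocks inside each broad peak. The middle of a member that lay in a broad peak fell inside such a block for 21.0% to 50.4% of members in control livers, for 52.9% to 63.5% in tumours with Myc on and for 66.2% to 86.7% in Toff tumours, so these groups did not overlap. The part of list length in this was not tested. The blocks took up 9.24% to 19.6%, 16.0% to 21.8% and 22.9% to 33.2% of the length of those broad peaks. For promoter-marked regions the share inside a block reached 79.3% in control livers. It was 71.1% to 80.3% with Myc on and started at 69.1% in Toff tumours, so all groups overlapped. For unmarked regions it was at most 25.4% in control livers, from 7 to 134 regions, and higher in every tumour. Tumours with Myc on, at up to 58.2%, overlapped Toff tumours, at 55.5% or more. The separation from control liver was thus not particular to the members.

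The median distance from a member to the nearest other member was 33241 bp, and 771 members (32.1%) had another within 10 kb.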
